A study of Mus musculus with 7 samples.

Results

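The genes described here encode mitochondrial carriers of the SLC25 family. They were taken by symbol, as every name made of Slc25a and a number, without Slc25a28, Slc25a37, Slc25a38 and Slc25a39, which carry iron, glycine and glutathione. The rule found 43 genes among 55367 gene symbols. All 7 libraries came from G1E-ER4, a single subclone of mouse erythroid progenitors without an active Gata1 gene, in which a fusion of GATA1 to the hormone-binding part of the estrogen receptor was introduced. There were 3 libraries of cells given 100 nM β-estradiol together with 50 µM DTPA for 24 h, 3 of cells given 100 nM β-estradiol alone for 24 h (called controls), and 1 of undifferentiated cells at 0 h. The line was maintained with erythropoietin and Kit ligand. Estradiol starts erythroid maturation in this line, and DTPA is a chelator that binds zinc strongly and other metals as well. The 0 h cells differ from the controls in both estradiol and time, which cannot be told apart, and the 0 h library has no replicate.

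Carriers of this family sit mostly in the inner mitochondrial membrane and exchange a solute of the matrix for another of the cytosol. Together they let ADP and phosphate in and ATP out, move the acids and amino acids that shuttle reducing power, and supply cofactors that are made in the cytosol or taken up from outside. A maturing erythroblast makes heme partly inside its mitochondria and later discards these organelles, so it depends on such exchange for glycine and iron. The members were grouped by the substrate each is best known to carry, and a few have none that is settled.

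The libraries held an estimated 19780000 to 21190000 reads under DTPA, 17680000 to 18600000 in the controls and 17580000 at 0 h. The labelled cell type was checked against 8 erythroid markers, all present, whose summed level was 16196 to 17934 TPM under DTPA, 20895 to 23482 TPM in the controls and 6603 TPM at 0 h. TPM is a level scaled to gene length and to the total of the library. At 24 h most of that sum was Hba-a1, and the other markers moved unequally under DTPA relative to control: Slc4a1, the anion exchanger of the red cell membrane, averaged 73.02 ± 2.81 TPM under DTPA and 770.3 ± 3.71 TPM in the controls, Gata1 averaged 1305 ± 118 TPM under DTPA and 3164 ± 93.1 TPM in the controls, and Alas2, the first enzyme of heme synthesis, averaged 2538 ± 41.4 TPM under DTPA and 1937 ± 61.6 TPM in the controls (SD, n = 3 each). Of the 8, 5 fell, 1 rose and 2 did not pass the test used for the carriers, by which 36.4% of all genes tested fell and 21.7% rose. Gata1 is among the 5 that fell. Transcripts of the introduced GATA1 fusion may enter its values, and TPM per gene cannot tell them from those of the cells' own gene. The sum of 6 megakaryocyte markers was 42.44 to 51.52 TPM under DTPA, 9.08 to 12.73 TPM in the controls and 39.48 TPM at 0 h, with Ppbp listed at 0 in all 7 libraries. Most of the DTPA sum was Gp1ba and Itgb3. Itgb3 had 14.76 to 16.13 TPM under DTPA and 3.3 TPM at 0 h. Gp9 had 1.83 to 4.9 TPM under DTPA and 1.34 TPM at 0 h, a difference that did not pass the test used for the carriers against 0 h. Itga2b (0.89 to 1.05 TPM, against 4.75 TPM at 0 h) and Pf4 (0.58 to 1.39 TPM, against 5.87 TPM) were lower, and Gp1ba lay on both sides of its 0 h value. The sum of 5 myeloid markers was 1.23 to 2.79 TPM under DTPA, 3.09 to 3.19 TPM in the controls and 7.16 TPM at 0 h, with Mpo and Itgam listed at 0 in all libraries. The sum of 3 mast cell markers, all of it Kit at 24 h, was 31.88 to 32.38 TPM under DTPA, 7.24 to 7.64 TPM in the controls and 145.5 TPM at 0 h. Cpa3 and Mcpt8 were listed at 0 in every 24 h library. The line itself was maintained with Kit ligand, so Kit does not mark mast cells alone. Of 4 lymphoid markers, Cd3e and Ptprc were listed at 0 throughout, and Cd79a reached 2.56 to 2.82 TPM under DTPA, 0.23 to 1.06 TPM in the controls and 0 TPM at 0 h. The part of these differences in the carrier results was not tested, and in RNA from bulk cells fewer cells of a type and less RNA per cell cannot be told apart.

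Carrier transcripts as a whole had similar sums in the 24 h groups, made up differently. The 43 members summed to 1990, 2033 and 2088 TPM in DTPA libraries, to 2077, 2063 and 2103 TPM in control libraries and to 2689 TPM at 0 h. The DTPA and control sums overlapped, and the 0 h sum stood above all 6. Carriers of adenine nucleotides and phosphate summed to 606 ± 16.9 TPM under DTPA and 563 ± 3.62 TPM in the controls (SD, n = 3 each), and to 1748 TPM at 0 h. Amino acid carriers ran the other way across time, with 653 ± 23 TPM under DTPA, 804 ± 21.6 TPM in the controls and 228 TPM at 0 h. Most of both shifts lay in 2 genes, the ADP/ATP carrier gene Slc25a5 and the branched-chain amino acid carrier gene Slc25a44. Slc25a5 made up 15.5% to 16.7% of all carrier TPM under DTPA, 15.8% to 16% in the controls and 46.4% at 0 h, while Slc25a44 made up 27.9% to 29.4% under DTPA, 34.4% to 35.7% in the controls and 3.7% at 0 h. Without these 2 genes the members summed to 1132 ± 35.6 TPM under DTPA, 1017 ± 9.97 TPM in the controls (SD, n = 3 each) and 1341 TPM at 0 h.

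**Figure D1:**
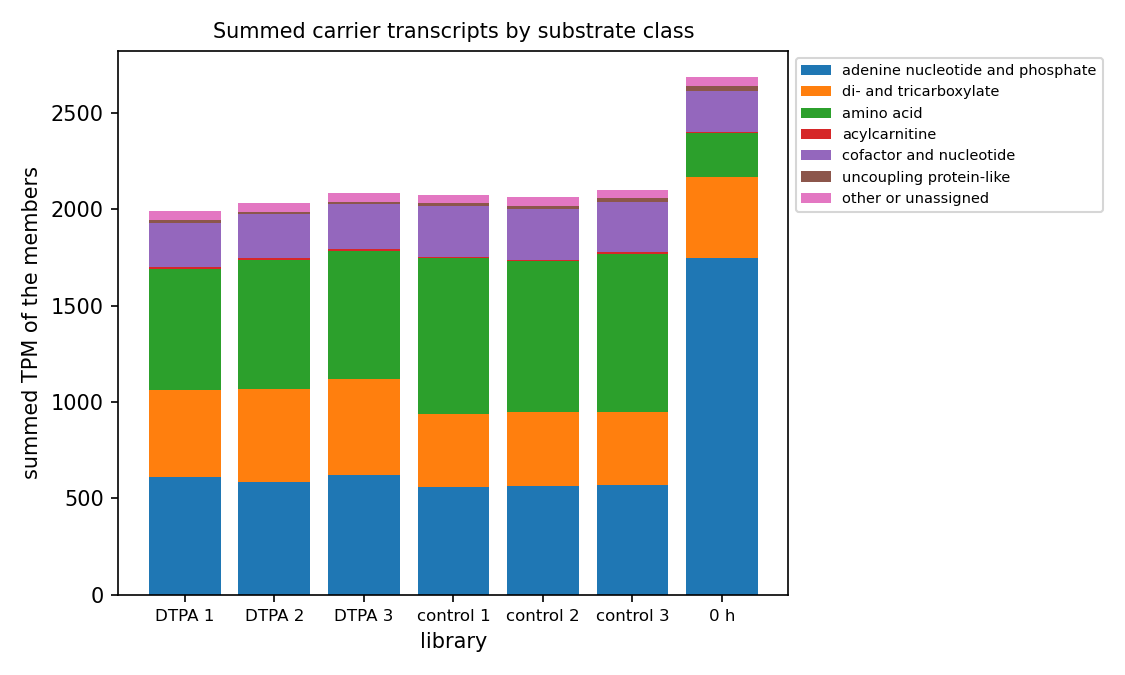
Summed TPM (linear axis from 0) of the 43 carrier genes in each of the 7 libraries, stacked by substrate class. The adenine nucleotide and phosphate block is largest at 0 h (1748 TPM), and the amino acid block is larger in the DTPA (627 to 669 TPM) and control (781 to 822 TPM) libraries than at 0 h (228 TPM).

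Under DTPA, 11 carrier genes were higher and 8 lower than in the controls (limma, adjusted p under 0.05), of 32 tested. The other 11 did not pass the filter: 6 were listed at exactly 0 in all 7 libraries, which may come from how reads were counted as well as from expression, and 5 had values too low to test. Over all 11147 genes tested, 21.7% were higher and 36.4% lower, and 58.1% were called in either direction, close to the 59.4% of the tested carriers. The 3 DTPA libraries did not overlap the 3 controls in 19 carriers, or 59.4% of those tested, against 65% of all genes. The median log2 fold change was 0.04 for the tested carriers and -0.09 for all genes. The changes were mostly small: 3 carriers were higher and 2 lower by at least 0.5 on the log2 scale, against 11% and 17.4% of all genes. These were Slc25a4, Slc25a45 and Slc25a47 upward and Slc25a23 and Slc25a40 downward. Slc25a45 reached the filter of 1 TPM only through the DTPA libraries, so a difference was built into its call. How many were higher moved with the scaling. With median-of-ratios size factors 13 carriers were higher and 7 lower, while 47.9% of the calls among all genes were higher, against 37.3% on the deposited scale. With quantile normalization 16 carriers were higher and 7 lower, with 50.8% of all calls higher. The controls and the 2 sets of tests against 0 h share libraries, so each comparison is given by its own values.

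Against 0 h most called carriers were lower, at a stricter threshold (limma adjusted p under 0.05 and a log2 fold change of at least 1 in size). Under DTPA 2 of 34 tested carriers were higher and 9 lower than at 0 h, against 15.7% and 27.6% of all 12016 genes tested, with 43.3% of all genes called in either direction. In the controls 1 of 35 was higher and 10 were lower than at 0 h, against 15.1% and 24.3% of 11906 genes, with 39.4% called in either direction. The median log2 fold change was -0.35 for the carriers tested under DTPA and -0.37 for those tested in the controls. Quantile normalization gave 5 higher and 7 lower carriers in each of these comparisons. Over all genes that median was -0.30 for DTPA and -0.22 for the controls on the deposited scale, and -0.03 for each under quantile normalization, so small differences from 0 h are relative to that shift.

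**Figure D2:**
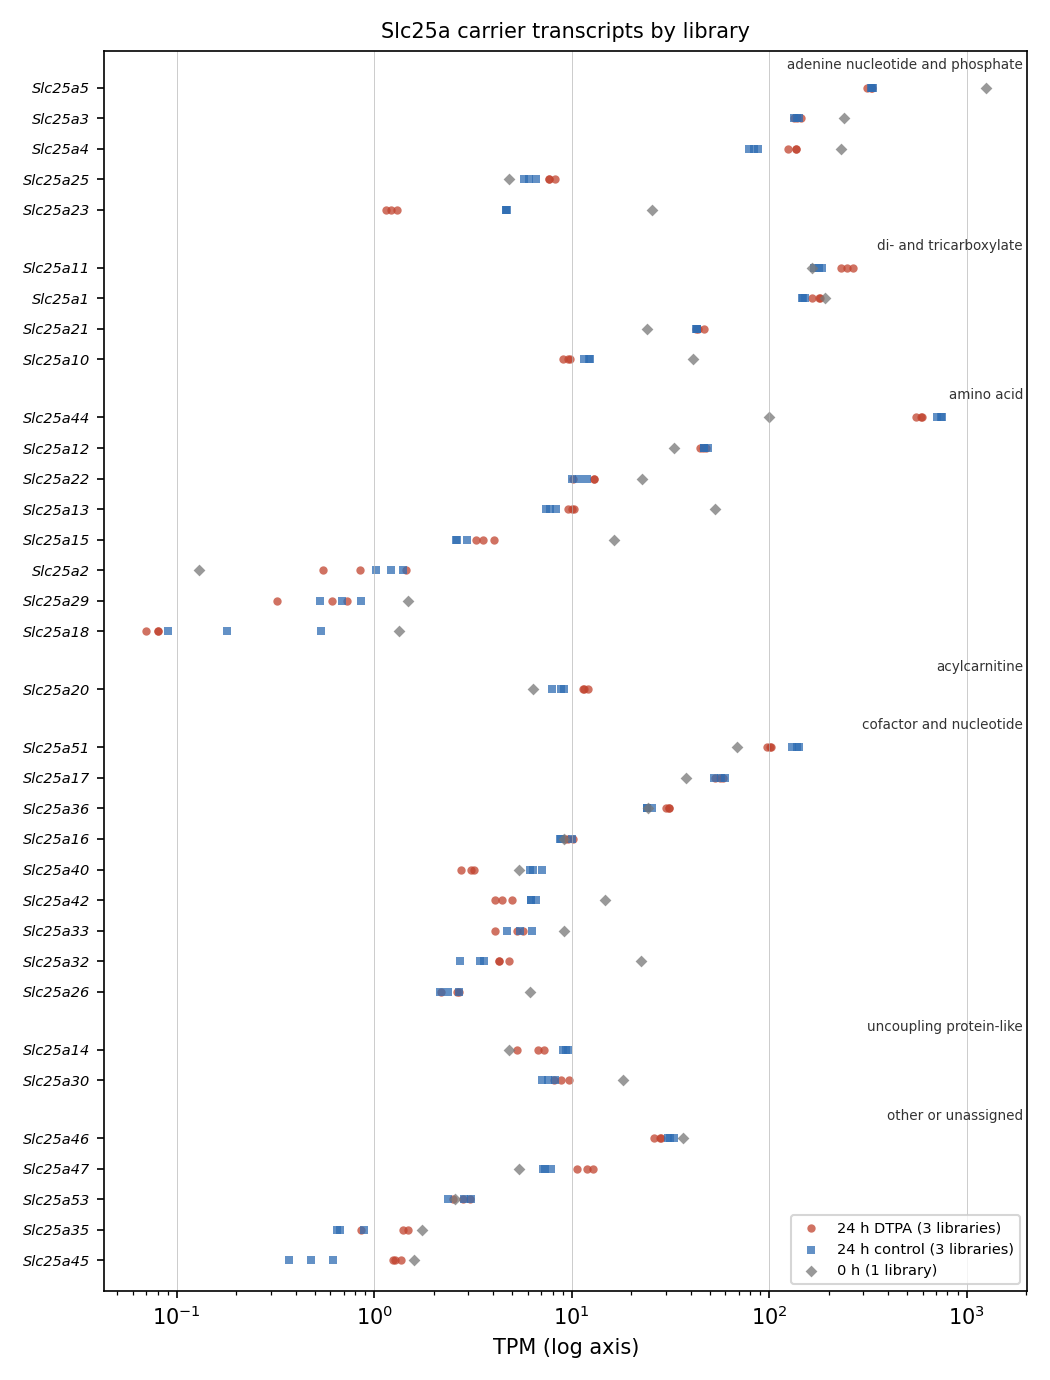
TPM (log axis) in each library of 34 carrier genes that reached 1 TPM in any library, grouped by substrate class and ordered by control level; circles are DTPA, squares control and diamonds the 0 h library, and values of 0 are not drawn. At 0 h Slc25a5 (1248 TPM), Slc25a13 (53.46 TPM), Slc25a23 (25.6 TPM) and Slc25a32 (22.54 TPM) lie to the right of their 24 h points, and Slc25a44 (99.41 TPM) lies to the left.

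The ADP/ATP carriers exchange cytosolic ADP for the ATP made in the matrix. Slc25a5, which encodes the carrier ANT2 of growing cells, had 332.35, 314.37 and 328.61 TPM in DTPA libraries, 331.73, 326.24 and 334.54 TPM in control libraries and 1247.8 TPM at 0 h. All 6 libraries at 24 h lay close together and far below 0 h. Its log2 fold change from 0 h was -1.94 under DTPA and -1.91 in the controls (limma adjusted p = 5.8e-07 and 8.19e-07). The difference between DTPA and control, -0.03 ± 0.0368 (SE, limma adjusted p = 0.582), did not pass, and it was 0.10 under quantile normalization (adjusted p = 0.0781). Its deposited values may share reads with processed pseudogenes, since the treatment of reads with several matches is not given. Slc25a4 encodes ANT1, the form of heart and muscle. It had 137.19, 124.68 and 136.59 TPM in DTPA libraries, 83.9, 87.8 and 79.1 TPM in control libraries and 230.05 TPM at 0 h. Every DTPA library lay above every control and below 0 h. Slc25a4 rose by 0.66 ± 0.0568 (SE) under DTPA relative to control (limma adjusted p = 4.44e-05), and its log2 fold change from 0 h was -0.79 under DTPA, under the minimum fold, and -1.45 in the controls (adjusted p = 1.68e-05). The ratio of Slc25a5 to Slc25a4, which 1 scaling factor per library cannot alter, was 2.45 ± 0.0625 under DTPA and 3.97 ± 0.257 in the controls (SD, n = 3 each) and 5.42 at 0 h. Slc25a31, the testis form ANT4, was at 0.15 TPM in 1 control library and listed at 0 in the others.

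The phosphate carrier gene Slc25a3, whose product brings phosphate for ATP synthesis and also copper into the matrix, had 134.29, 139.06 and 144.23 TPM in DTPA libraries, 133.33, 138.37 and 142.12 TPM in control libraries and 239.46 TPM at 0 h. The 24 h groups overlapped, and both lay below 0 h by less than the minimum fold, with log2 fold changes of -0.78 under DTPA and -0.79 in the controls. Slc25a3 did not pass between DTPA and control (0.01, adjusted p = 0.823), but was called higher under median-of-ratios scaling (0.11, adjusted p = 0.039) and quantile normalization (0.19, adjusted p = 0.00416). The ATP-Mg/phosphate carriers, regulated by calcium, adjust the total adenine nucleotide of the matrix. Slc25a23 had 1.14, 1.22 and 1.31 TPM in DTPA libraries, 4.69, 4.63 and 4.65 TPM in control libraries and 25.6 TPM at 0 h. No groups overlapped, and the DTPA libraries were the lowest. Of the 32 tested members it showed the largest fall under DTPA, -1.35 ± 0.11 (SE, limma adjusted p = 3.45e-05), and its log2 fold change from 0 h was -3.58 under DTPA and -2.23 in the controls (adjusted p = 9.81e-07 and 6.03e-06). An estimated 42 to 50 reads per DTPA library, 143 to 151 per control library and 801 at 0 h lay behind these values, and with a pseudocount of 5 in place of 1 the log2 fold change between DTPA and control was -0.63. Its exons share 168 bp with Gm17168 on the other strand, and the strand setting of the counting is not given. Its relative Slc25a25 moved the other way, with 7.7, 7.66 and 8.2 TPM in DTPA libraries, 6.05, 5.74 and 6.59 TPM in control libraries and 4.84 TPM at 0 h, and it rose by 0.31 under DTPA relative to control (limma adjusted p = 0.0121). Slc25a25 exons share 379 bp with Naif1 on the other strand. The ratio of Slc25a25 to Slc25a23 was 6.26 to 6.75 under DTPA, 1.24 to 1.42 in the controls and 0.189 at 0 h. Slc25a24, Slc25a41 and Slc25a54 were listed at 0 in all 7 libraries.

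Genes of the ATP synthase, which uses what these carriers bring in, were mostly lower under DTPA. Among all 11147 genes tested, 36.4% fell and 21.7% rose under DTPA, with a median log2 fold change of -0.09. Each list count under DTPA from here on is to be read beside these shares. Of 16 ATP synthase genes tested, 12 fell, 1 rose and 3 did not pass, and the median of their log2 fold changes was -0.37. The largest falls were in Atp5o, Atp5k, Atp5b and Atp5h; Atp5b, a catalytic subunit, averaged 563 ± 5.69 TPM under DTPA and 977 ± 5.28 TPM in the controls (SD, n = 3 each; limma adjusted p = 9.96e-07). All 3 VDAC genes, which encode the pores of the outer membrane, fell under DTPA, with a median of -0.44; Vdac1 averaged 171 ± 1.89 TPM under DTPA and 349 ± 9.54 TPM in the controls (adjusted p = 5.41e-07). Of 13 genes for import of carriers through TOM and TIM22, 7 fell and 6 did not pass, with a median of -0.40. Timm10, Agk, Timm22 and Tomm40 had log2 fold changes of -0.54, -0.50, -0.49 and -0.45. Agk, 1 of the 7, had 0.71 to 1.01 TPM under DTPA and 1.6 to 1.72 TPM in the controls. It met the filter of 1 TPM only because of the control libraries, so a difference was built into its call. From 0 h to the controls 7 of those 13 were lower, 1 was higher (Timm8b) and 5 did not pass. Over all 11906 genes tested there, 24.3% were lower and 15.1% higher, the shares for each later list count against 0 h in the controls.

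Carriers of di- and tricarboxylic acids link the citric acid cycle with the cytosol. Slc25a11, the 2-oxoglutarate/malate carrier of the malate-aspartate shuttle, had 230.84, 246.92 and 266.56 TPM in DTPA libraries, 169.09, 184.55 and 179.78 TPM in control libraries and 164.5 TPM at 0 h. Controls and 0 h lay near each other, and every DTPA library was higher. The log2 fold change between DTPA and control was 0.48 ± 0.0607 (SE, limma adjusted p = 0.000352), and 189 bp of its exons overlap Rnf167 on the other strand. Slc25a1 exports citrate for the making of fatty acids and had 164.82, 179.41 and 181.64 TPM in DTPA libraries, 152.58, 148.63 and 146.79 TPM in control libraries and 192.9 TPM at 0 h. It rose by 0.23 under DTPA (adjusted p = 0.00422), or by 0.40 with quantile normalization. The dicarboxylate carrier gene Slc25a10 had 9.55, 9.77 and 9.06 TPM in DTPA libraries, 12.19, 12.36 and 11.49 TPM in control libraries and 41.19 TPM at 0 h. The DTPA libraries were the lowest and 0 h the highest. It fell by 0.32 under DTPA relative to control (limma adjusted p = 0.00458), and its log2 fold change from 0 h was -2.01 under DTPA and -1.70 in the controls (limma adjusted p = 3.8e-06 and 8.93e-06). Its exons share 228 bp with Gm11788 on the other strand. Slc25a21, the oxodicarboxylate carrier, averaged 44.3 ± 2.01 TPM under DTPA and 43 ± 0.49 TPM in the controls (SD, n = 3 each), against 24.07 TPM at 0 h, and neither comparison with 0 h reached the minimum fold (0.85 under DTPA and 0.81 in the controls). Under quantile normalization both did, at 1.21 under DTPA and 1.02 in the controls.

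The aspartate/glutamate carriers complete the malate-aspartate shuttle, and their transcripts changed places between the 0 h library and the 24 h libraries. Slc25a13, which encodes citrin, had 10.01, 9.55 and 10.22 TPM in DTPA libraries, 8.32, 7.45 and 7.75 TPM in control libraries and 53.46 TPM at 0 h. Its log2 fold change from 0 h was -2.32 under DTPA and -2.62 in the controls (limma adjusted p = 3.19e-06 and 2.73e-06), and it was slightly higher under DTPA than in the controls, by 0.31 (adjusted p = 0.00806). Slc25a12, which encodes aralar, had 46.43, 44.52 and 47.98 TPM in DTPA libraries, 46.79, 46.54 and 48.83 TPM in control libraries and 32.82 TPM at 0 h. The 24 h groups overlapped, and both were above 0 h by less than the minimum fold. Between DTPA and control its difference was -0.03 (limma adjusted p = 0.582), and 0.12 under quantile normalization (adjusted p = 0.0437). The ratio of Slc25a12 to Slc25a13 was 4.64, 4.66 and 4.69 in DTPA libraries, 5.62, 6.25 and 6.3 in control libraries and 0.614 at 0 h, so the more abundant transcript was Slc25a12 in all 6 libraries at 24 h and Slc25a13 at 0 h.

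**Figure D3:**
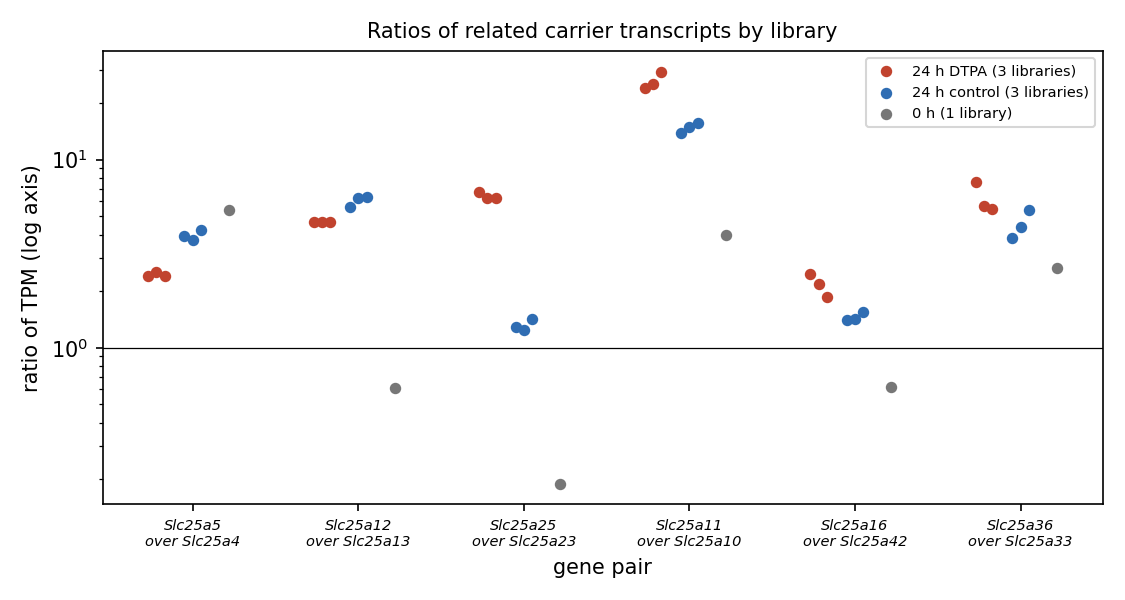
Ratio of TPM (log axis) of 6 pairs of related carrier genes in each library; points are libraries, red DTPA, blue control and grey 0 h, and the line marks equal levels. The Slc25a12 to Slc25a13, Slc25a25 to Slc25a23 and Slc25a16 to Slc25a42 ratios lie above 1 in every 24 h library and under 1 at 0 h. DTPA and control points do not overlap in any pair.

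The 6 pairs of related carriers were chosen with the levels known, so their ratios are a description. In each pair the 3 DTPA libraries did not overlap the 3 controls, where 65% of all single genes did not overlap either. An exact two-sided permutation test of 3 against 3 libraries cannot give a p below 0.1, the value found for each pair, and so cannot reach the threshold. The ratio of Slc25a11 to Slc25a10 was 24.2 to 29.4 under DTPA, 13.9 to 15.6 in the controls and 3.99 at 0 h. That of Slc25a16 to Slc25a42 was 1.86 to 2.48 under DTPA, 1.4 to 1.54 in the controls and 0.619 at 0 h. This pair thus changed places between 0 h and 24 h, as did Slc25a12 with Slc25a13 and Slc25a25 with Slc25a23. That of Slc25a36 to Slc25a33 was 5.5 to 7.6 under DTPA, 3.83 to 5.39 in the controls and 2.67 at 0 h, and its DTPA and control values nearly met.

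The upstream sequences of 4 carriers are shown because their transcripts either changed places (Slc25a12 and Slc25a13) or showed the largest falls among the members (Slc25a23 under DTPA, Slc25a5 in TPM from 0 h). Each is the 250 bases before a RefSeq transcript start, 5′ to 3′ on the strand of the gene, from RefSeq on GRCm38.p6. Capitals mark the letters of AGATAA or TGATAA, forms of the GATA factor motif, and of CACGTG, the E-box that MYC and related factors bind, each searched on both strands; the motifs do not overlap here.
Slc25a12 (chr2:71367756-71368005, minus strand): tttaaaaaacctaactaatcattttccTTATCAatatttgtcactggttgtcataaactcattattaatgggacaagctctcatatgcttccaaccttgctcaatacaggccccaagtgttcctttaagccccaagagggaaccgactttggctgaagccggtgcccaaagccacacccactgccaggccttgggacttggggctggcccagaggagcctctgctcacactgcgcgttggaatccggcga
Slc25a13 (chr6:6217174-6217423, minus strand): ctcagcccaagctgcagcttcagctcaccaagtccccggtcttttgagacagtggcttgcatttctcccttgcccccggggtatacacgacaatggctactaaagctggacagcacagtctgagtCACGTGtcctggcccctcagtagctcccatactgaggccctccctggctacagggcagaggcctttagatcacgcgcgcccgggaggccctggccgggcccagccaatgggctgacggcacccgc
Slc25a23 (chr17:57059864-57060113, minus strand): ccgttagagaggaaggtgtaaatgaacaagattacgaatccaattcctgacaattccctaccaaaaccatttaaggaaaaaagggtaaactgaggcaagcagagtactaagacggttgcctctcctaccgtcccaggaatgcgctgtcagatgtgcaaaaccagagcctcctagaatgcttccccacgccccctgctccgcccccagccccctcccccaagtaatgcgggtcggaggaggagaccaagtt
Slc25a5 (chrX:36795347-36795596, plus strand): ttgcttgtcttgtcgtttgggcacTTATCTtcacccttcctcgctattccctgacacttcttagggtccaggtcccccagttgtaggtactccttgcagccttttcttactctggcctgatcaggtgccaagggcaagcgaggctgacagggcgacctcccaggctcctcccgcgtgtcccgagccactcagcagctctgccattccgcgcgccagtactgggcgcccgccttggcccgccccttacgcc
Sequences were matched for 33 of the 43 members, in 43 windows. A GATA form stood in 3 of those windows, those of Slc25a5, Slc25a12 and Slc25a53, against 16.6% of all 32851 windows of the same length. CACGTG stood in 8 windows of 7 genes, against 6.02% of all windows: Slc25a1, Slc25a13, Slc25a14, Slc25a15, Slc25a31, Slc25a33 and Slc25a36. Member windows had a median of 57.6% G and C letters, against 52.4% in windows of other genes, so the motif shares are not compared like for like and were not tested. A match describes letters in a window and says nothing of binding.

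Of 10 enzymes of the malate-aspartate shuttle and of citrate use, 7 fell under DTPA, 1 rose and 2 did not pass, with a median log2 fold change of -0.37. Got1, the cytosolic aspartate aminotransferase, averaged 43.2 ± 1.95 TPM under DTPA and 68.4 ± 1.87 TPM in the controls (SD, n = 3 each; limma adjusted p = 2.27e-05), and Acly, which splits exported citrate, fell by 0.52. Glud1, a glutamate dehydrogenase, rose by 0.60 (adjusted p = 2.3e-05). Against 0 h, 2 of the 10 were lower in the controls and none was higher by the test with its minimum fold.

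Slc25a44 had the highest TPM at 24 h of the 43 members. It encodes a carrier of branched-chain amino acids, known from brown fat, and its annotated gene is at chr3:88410498-88425139 (GRCm38, minus strand). It had 554.63, 597.23 and 587.3 TPM in DTPA libraries, 738.43, 710.24 and 751.47 TPM in control libraries and 99.41 TPM at 0 h. All 24 h libraries were several times above 0 h, and no DTPA library reached the controls. The log2 fold change from 0 h was 2.53 ± 0.0561 (SE) under DTPA and 2.87 ± 0.0561 in the controls (limma adjusted p = 5.8e-07 and 5.67e-07), and the difference of DTPA from control was -0.34 ± 0.0429 (adjusted p = 0.000343). It was the only carrier of the 35 tested that passed as higher in the controls than at 0 h on the deposited scale. Enzymes of branched-chain breakdown were split: of 5 tested against 0 h in the controls, Bckdha was higher (1.13), Bckdhb was lower (-2.28) and 3 did not pass. Both encode parts of the dehydrogenase of branched-chain keto acids. Under DTPA 3 of 5 fell relative to control, 1 rose and 1 did not pass, with a median of -0.18. Bcat2, the mitochondrial aminotransferase that starts the breakdown, averaged 98.3 ± 5.91 TPM under DTPA and 178 ± 8.04 TPM in the controls (SD, n = 3 each; adjusted p = 1.21e-05), and Dbt, another part of that dehydrogenase, rose by 0.42.

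Among the other amino acid carriers, the ornithine/citrulline carrier gene Slc25a15 had 4.05, 3.55 and 3.29 TPM in DTPA libraries, 2.95, 2.62 and 2.58 TPM in control libraries and 16.35 TPM at 0 h. All 24 h libraries lay far below 0 h, with log2 fold changes of -1.91 under DTPA and -2.22 in the controls (limma adjusted p = 3.33e-05 and 2.12e-05). Its rise of 0.32 under DTPA relative to control (adjusted p = 0.0483) was lost when any of the 6 libraries was left out, with adjusted p between 0.0591 and 0.145. The glutamate carrier gene Slc25a22 averaged 12.03 ± 1.6 TPM under DTPA and 10.95 ± 0.935 TPM in the controls (SD, n = 3 each), against 22.59 TPM at 0 h, and passed in neither comparison with 0 h, at log2 fold changes of -0.86 under DTPA and -0.98 in the controls; the value for the controls passed without control replicate 1 (-1.04). The other glutamate carrier gene, Slc25a18, had 0.08, 0.08 and 0.07 TPM in DTPA libraries, 0.09, 0.54 and 0.18 TPM in control libraries and 1.33 TPM at 0 h. An estimated 1 read in each DTPA library, 1 to 6 in each control library and 15 at 0 h lay behind this. It passed the filter only through the 0 h library, so that a fall was built in, and its call against 0 h under DTPA (-1.11, limma adjusted p = 0.00269), 1 of the 9 lower calls, was lost with quantile normalization (-0.99), with median-of-ratios size factors (-1) and with a pseudocount of 5 (-0.32). Slc25a2, an ornithine carrier, had 0.55 to 1.45 TPM under DTPA, 1.02 to 1.4 TPM in the controls and 0.13 TPM at 0 h. Slc25a29, a carrier of basic amino acids, had 0.32 to 0.73 TPM under DTPA, 0.53 to 0.86 TPM in the controls and 1.49 TPM at 0 h. Of 4 tested enzymes of ornithine and arginine, Odc1, which makes putrescine, and Oat fell under DTPA by 0.80 and 0.36, Srm, the spermidine synthase, rose by 0.79 and Asl did not pass.

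The carnitine/acylcarnitine carrier gene Slc25a20, which lets long-chain fatty acids into the matrix, had 11.49, 12.16 and 11.38 TPM in DTPA libraries, 7.98, 8.78 and 9.15 TPM in control libraries and 6.39 TPM at 0 h. The groups did not overlap and stood in the order DTPA, control, 0 h from high to low. It rose by 0.40 ± 0.074 (SE) under DTPA relative to control (limma adjusted p = 0.00254). Against 0 h it did not reach the minimum fold under DTPA (0.78), but did under median-of-ratios scaling (1.01) and quantile normalization (1.21). Of 11 tested genes of carnitine use and fatty acid oxidation, 8 fell under DTPA, 1 rose and 2 did not pass, with a median of -0.22. The gene that rose was Cpt1a, the enzyme that makes the acylcarnitines, by 0.15 (adjusted p = 0.0111). Crat, which exchanges carnitine for coenzyme A on short acyl groups, averaged 133 ± 8.03 TPM under DTPA and 219.6 ± 4.49 TPM in the controls (SD, n = 3 each; adjusted p = 1.66e-05).

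The NAD carrier gene Slc25a51 led the cofactor carriers. It had 97.77, 102.09 and 100.87 TPM in DTPA libraries, 138.72, 140.86 and 131.2 TPM in control libraries and 68.82 TPM at 0 h. The 3 groups did not overlap, and DTPA lay between 0 h and control. It fell by 0.45 ± 0.0426 (SE) under DTPA relative to control (limma adjusted p = 7.75e-05); its increase from 0 h to the controls, 0.98, was just under the minimum fold and passed without control replicate 3 (1.01), when globin genes were left out of the scaling (1.04), with quantile normalization (1.02) and with median-of-ratios size factors (1.14). Slc25a40, a glutathione carrier, had 3.2, 2.75 and 3.1 TPM in DTPA libraries, 6.14, 6.34 and 7.06 TPM in control libraries and 5.43 TPM at 0 h. The DTPA libraries stood below all others, with 157 to 187 estimated reads each, against 310 to 346 in the controls. It fell by 0.90 ± 0.0996 (SE) under DTPA (limma adjusted p = 0.000166) and did not pass in the controls against 0 h. The related carrier gene Slc25a39, left out by the rule, averaged 158 ± 12.5 TPM under DTPA and 411.5 ± 10.4 TPM in the controls (SD, n = 3 each), against 181.7 TPM at 0 h, and fell by 1.38 under DTPA (limma adjusted p = 1.51e-06).

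Slc25a32, a carrier of folate and FAD, had 4.27, 4.81 and 4.28 TPM in DTPA libraries, 2.73, 3.58 and 3.43 TPM in control libraries and 22.54 TPM at 0 h. The log2 fold change from 0 h was -2.11 under DTPA and -2.48 in the controls (limma adjusted p = 3.77e-05 and 2.31e-05). Its rise of 0.37 under DTPA relative to control (adjusted p = 0.0304) was lost without DTPA replicate 1, 2 or 3 or control replicate 1, with adjusted p between 0.0553 and 0.104. Of 8 tested enzymes of mitochondrial and related folate use, 5 fell under DTPA relative to control, 1 rose and 2 did not pass, with a median log2 fold change of -0.63. Of 9 tested against 0 h in the controls, 5 were lower, 1 higher and 3 did not pass, with a median of -2.10. Shmt2, which splits serine in the matrix, averaged 64.8 ± 5.91 TPM under DTPA and 177 ± 5.35 TPM in the controls (SD, n = 3 each; limma adjusted p = 2.02e-06), against 776.2 TPM at 0 h. The cytosolic Shmt1 fell by 1.36 under DTPA and Mthfd2, a folate dehydrogenase of the matrix, fell by 0.92.

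The coenzyme A carriers gave unlike results. Slc25a42 had 4.07, 4.43 and 4.97 TPM in DTPA libraries, 6.23, 6.23 and 6.56 TPM in control libraries and 14.7 TPM at 0 h, and it fell by 0.42 under DTPA relative to control (limma adjusted p = 0.00607). From 0 h its log2 fold change was -1.52 under DTPA and -1.10 in the controls (limma adjusted p = 5.64e-05 and 0.000273), and the value for the controls was under the minimum fold with median-of-ratios scaling (-0.94) and quantile normalization (-0.75). Slc25a16 stayed between 8.74 and 10.1 TPM in all 7 libraries and passed in no comparison. The peroxisomal carrier gene Slc25a17 had 58.3, 53.12 and 56.42 TPM in DTPA libraries, 56.8, 52.87 and 59.96 TPM in control libraries and 38.1 TPM at 0 h, and the 24 h groups overlapped. The S-adenosylmethionine carrier gene Slc25a26 had 2.69, 2.63 and 2.17 TPM in DTPA libraries, 2.16, 2.68 and 2.35 TPM in control libraries and 6.16 TPM at 0 h. Its log2 fold change from 0 h was -1.04 under DTPA and -1.08 in the controls (limma adjusted p = 0.000823 and 0.000738). With median-of-ratios scaling both values, -0.82 under DTPA and -0.94 in the controls, were under the minimum fold, as was that for DTPA without DTPA replicate 3 (-0.97). Of the pyrimidine nucleotide carriers, Slc25a36 rose under DTPA by 0.32 (29.95 to 31.24 TPM, against 24.02 to 25.39 TPM in the controls; adjusted p = 0.000982) and Slc25a33 did not pass (-0.11, adjusted p = 0.54).

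Of the carriers that resemble uncoupling proteins, Slc25a14 averaged 6.4 ± 1.01 TPM under DTPA and 9.34 ± 0.244 TPM in the controls (SD, n = 3 each), against 4.8 TPM at 0 h, and fell by 0.49 under DTPA (limma adjusted p = 0.00619). Slc25a30 had 9.7, 8.83 and 8.1 TPM in DTPA libraries, 7.56, 7.05 and 8.27 TPM in control libraries and 18.29 TPM at 0 h. The 24 h groups overlapped; the log2 fold change from 0 h was -0.97 under DTPA, under the minimum fold, and -1.16 in the controls (limma adjusted p = 0.00032), where it was -0.86 under quantile normalization. Between DTPA and control it did not pass (0.19, adjusted p = 0.109), but did under median-of-ratios scaling (0.28, adjusted p = 0.0317). Slc25a27 was listed at 0 in all libraries. Of the family members with other symbols or left out by the rule, 7 of 9 were tested under DTPA, 5 fell and 2 did not pass, with a median of -0.40; Ucp2 averaged 676 ± 35.5 TPM under DTPA and 1121 ± 29.4 TPM in the controls (SD, n = 3 each; limma adjusted p = 1.14e-05), against 329.8 TPM at 0 h. Those 9 were 4 higher, none lower and 3 not past the test in the controls against 0 h, with 2 not tested.

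Members with another substrate, or with none that is settled, included both of the remaining rises. Slc25a47, known from liver, had 10.62, 12 and 12.82 TPM in DTPA libraries, 7.33, 7.87 and 7.16 TPM in control libraries and 5.39 TPM at 0 h. The groups did not overlap, with DTPA highest. It rose by 0.60 ± 0.086 (SE) under DTPA relative to control (limma adjusted p = 0.000678); its rise over 0 h under DTPA lay at the minimum fold (1.00) and was lost without DTPA replicate 2 (0.99) or 3 (0.94). Slc25a45 had 1.25, 1.28 and 1.36 TPM in DTPA libraries, 0.48, 0.37 and 0.62 TPM in control libraries and 1.59 TPM at 0 h. It reached the filter of 1 TPM only through the DTPA libraries, so that a difference was built in, and 24 to 27 estimated reads per DTPA library and 6 to 10 per control library lay behind it. Its log2 fold change was 0.63 (adjusted p = 0.0145), or 0.20 with a pseudocount of 5. Slc25a46, an outer membrane protein of mitochondrial dynamics, averaged 27.5 ± 1.31 TPM under DTPA and 31.7 ± 1.15 TPM in the controls (SD, n = 3 each); its fall of 0.20 (adjusted p = 0.016) was lost under median-of-ratios scaling (adjusted p = 0.104), quantile normalization (0.353) and without DTPA replicate 2 (0.0576). Slc25a53 had 2.51 to 3.04 TPM under DTPA and 2.36 to 3.09 TPM in the controls. Slc25a35, with 0.86 to 1.48 TPM under DTPA and 0.65 to 0.89 TPM in the controls, shares 1151 bp of exon with Rangrf on the other strand. Slc25a43 and Slc25a48 were listed at 0 in all 7 libraries and Slc25a34 reached 0.06 TPM in 1 control library.

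**Figure D4:**
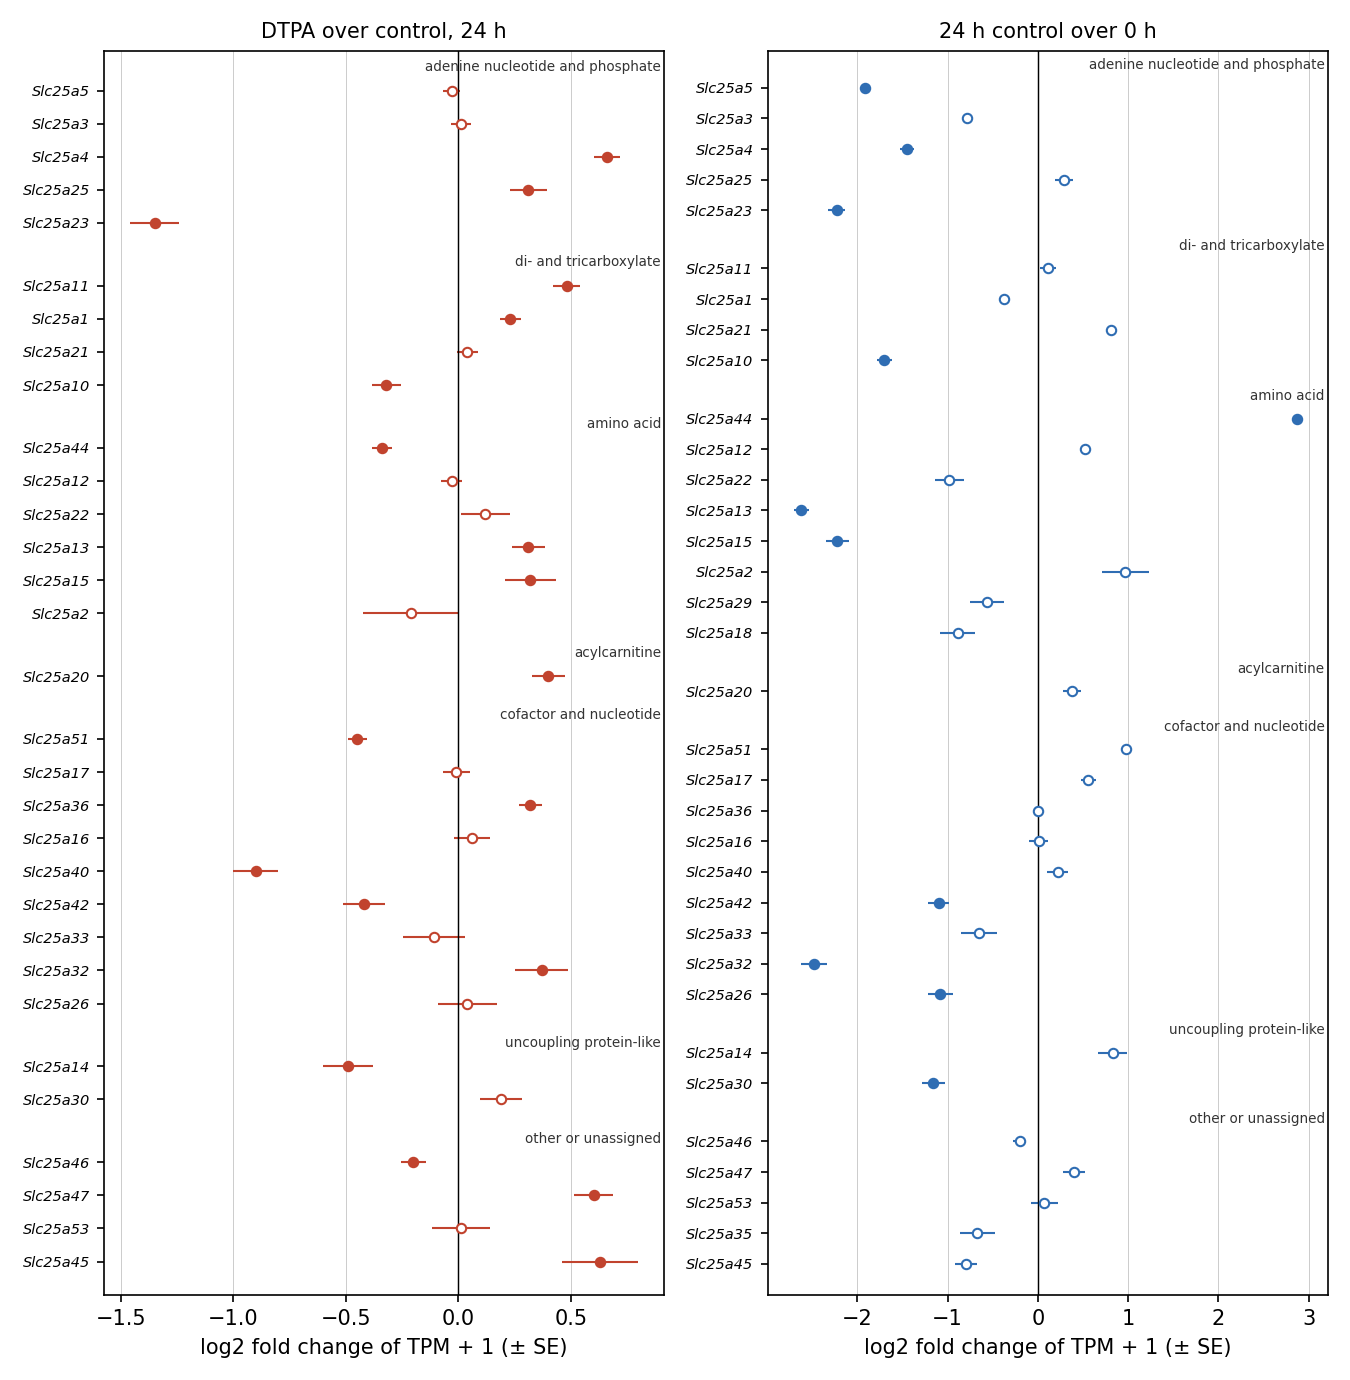
Log2 fold change of TPM + 1 with its SE for the tested carriers drawn, DTPA over control at 24 h on the left (31 genes) and control at 24 h over 0 h on the right (34 genes); filled points passed the test (on the right also a minimum of 1 in size), open points did not, and the axes differ in range. Slc25a23 lies farthest below 0 in the left panel at -1.35, and Slc25a44 is the only filled point to the right of 0 in the right panel, at 2.87.

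Other genes of mitochondrial transport are given for comparison. Of the mitochondrial pyruvate carrier genes, Mpc1 fell by 0.64 under DTPA (limma adjusted p = 2.62e-05) and Mpc2 rose by 0.31 (adjusted p = 0.00537). All 4 mitochondrial ABC transporter genes tested fell, among them by 0.12 for Abcb10, which heme synthesis needs, and by far the most abundant at 1110 ± 19.8 TPM under DTPA and 1204 ± 13.3 TPM in the controls (SD, n = 3 each), and by 0.62 for Abcb6 and 0.29 for Abcb8. Of 4 tested sideroflexins, some of which carry serine, 2 fell, 1 did not pass and Sfxn4 rose by 1.26 (adjusted p = 0.000119). Of 5 tested genes of the calcium uniporter and related proteins, 3 fell and 2 did not pass. Whether these lists differ from the 43 carriers was not tested.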

How the data were processed

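RNA libraries of 7 samples of G1E-ER4 cells were made with a stranded mRNA kit, per the labels' protocols. The submitters' processing notes name Trimmomatic 0.33, FastQC, HISAT2 2.1.0, featureCounts and edgeR with build mm10. The annotation, the strand setting and the treatment of reads with several matches are not given in the sources used here. What was deposited is TPM per gene, computed by the authors from gene length and library total, so strong growth of a few abundant transcripts pushes every other value down. Values of symbols on several rows were summed; none was a carrier. Reads were estimated from the step of low values and GENCODE M21 exon lengths (99.1% to 99.5% of low values within 0.1 of a whole number), so depth is an estimate and covers counting error only.

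Tests were run with limma 3.58.1 (R 4.3.3) after a log2(TPM + 1) transformation, with a variance trend, two-sided, with Benjamini-Hochberg adjustment over all genes tested and a threshold of 0.05. Fold changes on that scale understate low genes. DTPA was compared with control over genes with at least 1 TPM in 3 of the 6 libraries. Comparisons with 0 h used all 7 libraries, genes whose mean reached 1 TPM in either group, and a minimum log2 fold change of 1; the lone 0 h library was assumed to vary like the others. The fits were tested on simulated data. Replicates are called biological in the labels, with no word on separate cultures, so p-values measure the spread between these libraries. Alternatives changed the pseudocount, the filter, the trend, the scaling, the libraries and the minimum fold.

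The members, substrate classes and lists were chosen with earlier results of these data known. Values in every library are given for carriers with a mean of at least 50 TPM in any group, a called change of at least 0.5 on the log2 scale under DTPA, or a call against 0 h. Up to 4 called genes of each other list, those with the largest change under DTPA, could be named; other genes, and values for some other carriers, were added after their values were seen. The lists held lineage markers, VDAC, pyruvate carrier, sideroflexin, calcium uniporter, ABC transporter, TIM22 import, ATP synthase, shuttle, folate, fatty acid, ornithine and branched-chain genes, and family members with other symbols. A few genes that enter the counts and sums are not reported here by name.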

Additional observations from a re-analysis of the deposited data

How the results depend on the processing

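Between DTPA and control, 8 to 16 carriers were higher and 7 or 8 lower over all alternatives, and 8 to 10 higher and 7 or 8 lower with any replicate left out. Slc25a12 was the only carrier whose direction changed in a call: it was higher under quantile normalization (0.12, adjusted p = 0.0437), against -0.03 on the deposited scale; the cause was not tested. Against 0 h in the controls, where 1 carrier was higher and 10 lower, the counts of higher carriers were 2 with a pseudocount of 0.5, 2 with median-of-ratios scaling, 5 with quantile normalization, 3 without globin genes and 1 to 3 with a control replicate left out, with 3 without control replicate 3 (10 to 11 lower); without a minimum fold 10 were higher and 19 lower. Under DTPA against 0 h, where 2 were higher and 9 lower, the counts of higher carriers were 1 with a pseudocount of 5, 4 with median-of-ratios scaling, 5 with quantile normalization and 1 to 2 with a DTPA replicate left out, with 1 without DTPA replicate 2 or 3 (8 to 10 lower); without a minimum fold 10 were higher and 17 lower. The replicate numbers did not pair the libraries: deviations from the group means correlated at -0.01, 0.02 and -0.01 for numbers 1, 2 and 3, and not every library correlated best with its own number. With the replicate block, 10 carriers were higher and 8 lower, and the call of Slc25a15 was lost (adjusted p = 0.0691). Members under about 2 TPM rest on few reads, and their values cannot show small differences at this depth.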

Other observations

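Of 4 pairs of neighbouring carrier genes, 2 set a gene listed at 0 beside an expressed member, and in another, Slc25a54 and Slc25a24 on chromosome 3, both were listed at 0. Slc25a43, at 0 in all 7 libraries, lies 18448 bases before Slc25a5 on the same strand of chromosome X, and Slc25a5 had 314 to 332 TPM under DTPA, 326 to 335 TPM in the controls and 1248 TPM at 0 h. Slc25a41, also at 0, lies 2056 bases from Slc25a23 on the same strand of chromosome 17. Slc25a29 and Slc25a47 lie 162 bases apart on opposite strands of chromosome 12, starting away from each other; Slc25a29 had 0.32 to 0.73 TPM under DTPA, 0.53 to 0.86 TPM in the controls and 1.49 TPM at 0 h, while Slc25a47 was highest under DTPA.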
